A study of Mus musculus with 18 samples.

Results

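The genes described here were grouped around the storage, transport and conversion of vitamin A (retinoids) in the liver. Lrat and Rbp4 serve storage and transport, Retsat, Dhrs3 and Dhrs4 reduction, Aldh1a1 oxidation, and Cyp26a1 breakdown. Aldh1a7 is included as a paralog of Aldh1a1, with no retinoid step assigned to it. All were found on the arrays by gene symbol, which gave 8 probes for 8 genes, 1 probe each. The arrays hold 39429 non-control probes with 31829 gene names. Livers came from C57BL/6J males, mice of an inbred strain, aged 13 weeks. All mice had eaten a high-fat diet for 5 weeks, made with linseed oil (8 mice, LIN) or with palm oil (10 mice, PALM), after 1 week on a standard pelleted diet. The fat of the linseed diet was 66.7% polyunsaturated, including 49.7% alpha-linolenic acid (an n-3 fatty acid), 22.5% monounsaturated and 9.7% saturated, whereas that of the palm diet was 8.8% polyunsaturated, 34.8% monounsaturated and 55.6% saturated. Lipid supplied 51.1% of the energy in both diets, so the comparison is between 2 fats. Mice were assigned to the diets at random and housed in groups, and the labels do not tie arrays to cages.

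The liver holds most of the body's vitamin A as retinyl esters, which Lrat makes in stellate cells from retinol. Hepatocytes send retinol into the blood bound to Rbp4. Retinol and retinal are converted into each other by dehydrogenases and reductases, retinal is oxidised irreversibly to retinoic acid, the ligand of the nuclear retinoic acid receptors, and Cyp26 enzymes hydroxylate retinoic acid for removal.

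Each liver was measured on its own 1-colour array. Values are log2 of the processed spot intensity relative to the array's 75th percentile, so 1 unit is a doubling, and levels are compared between diets for a probe and never between probes. The 75th percentile was 117 to 204 intensity units on LIN (median 157) and 124 to 196 on PALM (median 181). A lower percentile gives a higher value for the same intensity, and whether it differed between diets was not tested. On each array 17258 to 22445 probes were well above background. From 238 to 1703 spots per array carried a mark from the image software (non-uniform or an outlier) and were left out. The number of arrays limits the precision. The arrays lay on 5 slides, each with both diets. All 11 probes of 9 hepatocyte marker genes passed the signal filter once marked spots were kept. So did 20386 of all 39429 non-control probes, so this shows only that the markers were detected. Differences are LIN minus PALM, ± SE from limma. Their p-values were adjusted by Benjamini and Hochberg over all 19510 probes tested. The word called stands for an adjusted p under 0.05. Over all probes 147 were called (0.753%), 115 of them higher (0.589%) and 32 lower (0.164%) on LIN, and the median difference was -0.000512.

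Probes of 3 members are shown because the results turn on what they bind: those of the called genes, and that of the gene whose level varied most among mice. The Retsat probe matches chr6:72556656-72556715 (mm9, plus strand), the Dhrs4 probe chr14:56105010-56105943 (mm9, plus strand) and the Cyp26a1 probe chr19:37775566-37775625 (mm9, plus strand), per the array files. The Dhrs4 span of 934 bases is longer than the 60 bases of the probe, so its match is split in the genome. All letters are in lower case because no part is singled out.
Retsat: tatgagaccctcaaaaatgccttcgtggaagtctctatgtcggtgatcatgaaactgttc
Dhrs4: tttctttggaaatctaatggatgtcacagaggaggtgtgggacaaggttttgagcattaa
Cyp26a1: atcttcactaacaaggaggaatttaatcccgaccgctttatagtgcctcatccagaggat

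Cyp26a1 is known for its control by retinoic acid, and receptors for retinoic acid are known to bind direct repeats of a hexamer. Of the 8 members, all with at least 1 window in the RefSeq promoter table (GRCm38.p6, 12 windows), only Cyp26a1 had a match to a searched repeat in the 250 bases before its start. The motifs, searched on both strands, were 6: AGTTCA or AGGTCA repeated with 1, 2 or 5 bases between. These letters were chosen after the members' promoters had been read. The match was to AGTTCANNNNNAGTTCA on the minus strand, from 32 to 16 bases before the start, a motif held by 0.0213% of 32851 windows. The other motifs were held by 0.00913% to 0.0335% of windows. The window lies at chr19:37697558-37697807 (GRCm38.p6, plus strand), and the capitals mark the match.
Cyp26a1 upstream: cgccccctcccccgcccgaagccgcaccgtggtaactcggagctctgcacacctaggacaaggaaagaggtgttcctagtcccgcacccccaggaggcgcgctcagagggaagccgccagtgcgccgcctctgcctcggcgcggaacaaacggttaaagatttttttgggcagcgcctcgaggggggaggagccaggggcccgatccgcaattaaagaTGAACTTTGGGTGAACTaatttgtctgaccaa

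Among the members, Retsat and Dhrs4 were higher on linseed oil than on palm oil, and the others did not pass the test. With marked spots left out, 7 members were tested. Rbp4 was saturated on every array and gives no usable difference, so 6 remain. Of these, 2 were called higher, against 0.589% of all probes, and 0 lower. The members were chosen with earlier results of these data known, so this count cannot be read as enrichment. With marked spots kept, all 7 members other than Rbp4 could be tested, and the called ones were again Retsat and Dhrs4 (0.721% of all probes were then called higher). At an unadjusted p under 0.05, 10.6% of all probes passed.

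**Figure D1:**
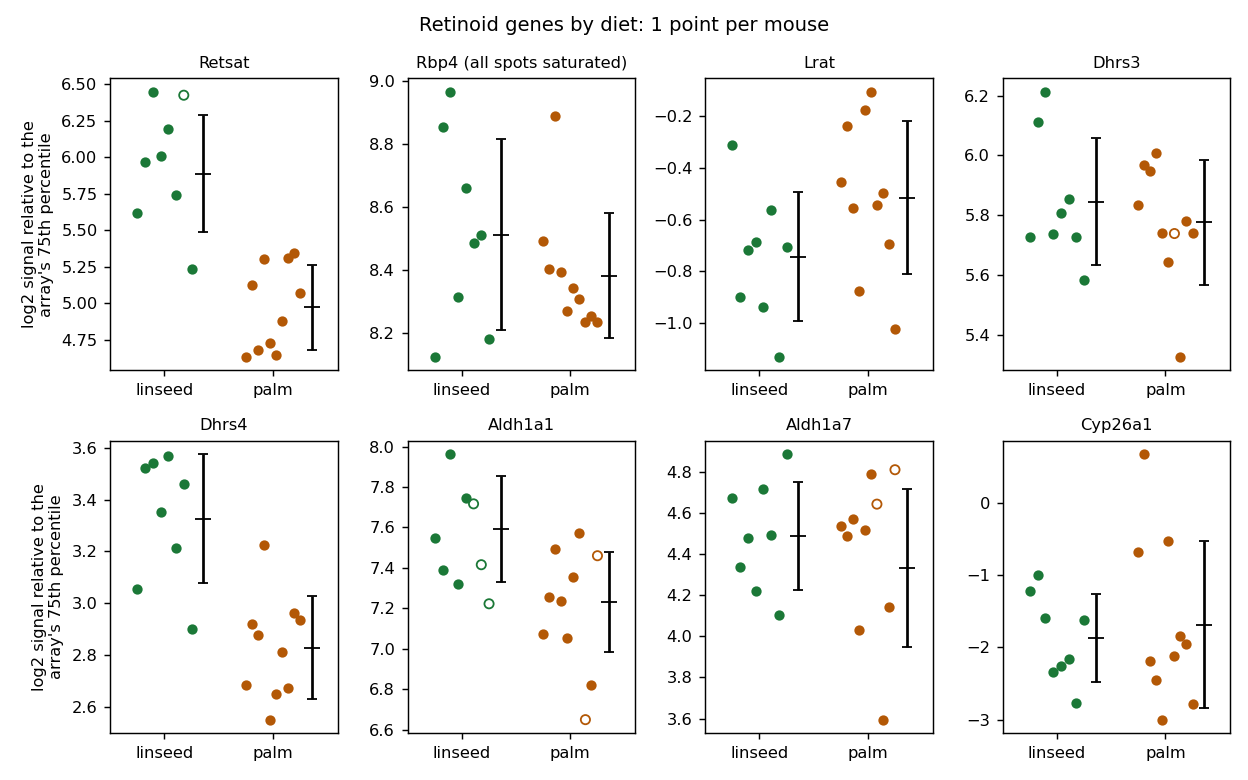
Level of each gene by diet: 1 point per mouse, log2 intensity relative to the array's 75th percentile, linseed left and palm right; open circles are marked spots, and bars give the mean ± SD of the unmarked spots. Retsat and Dhrs4 sit higher on linseed oil with 1 linseed point of Retsat (5.23) and 3 of Dhrs4 inside the palm range, and the Rbp4 points are all saturated.

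Lrat, which esterifies retinol for storage in stellate cells, ranged from -1.13 to -0.31 on LIN (median -0.71) and from -1.02 to -0.10 on PALM (median -0.52). The diets overlapped, with 1 of 8 LIN values above the PALM median. Its difference was -0.23 ± 0.13 (95% interval -0.50 to 0.04, adjusted p = 0.566 by limma). Within slides it ran from -0.80 on slide 1 to 0.15 on slide 5. The Lrat difference was not called, and in whole liver the number of stellate cells and the RNA per cell cannot be told apart. Of 18 probes of 15 stellate cell markers 14 were tested, and of the 13 that were well above background on at least 4 LIN and 5 PALM arrays 0 were called (0 at an unadjusted p under 0.05). Their median difference was -0.03. The summed level of all 18 was 107 to 150 on LIN and 91.8 to 140 on PALM, in units of the array's 75th percentile. That sum is mainly the level of Dcn and of 1 Ecm1 probe (log2 means of 5.78 and 5.67 on LIN), with Colec11 next at 3.15.

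Rbp4, the plasma carrier of retinol made by hepatocytes, had spot intensities of 55153 to 58793 on LIN and 56842 to 59104 on PALM. All 18 spots were saturated, so the arrays give only a lower bound for it in both diets, and no difference is given.

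Retsat, retinol saturase, which reduces retinol to dihydroretinol, was higher on LIN and had the smallest p of the members. Its unmarked values on LIN were 5.62, 5.97, 6.45, 6.01, 6.19, 5.74 and 5.23 for replicates 1 to 6 and 8. On PALM they ranged from 4.63 to 5.34 with a median of 4.97. Of 7 LIN values 6 lay above every PALM value, and the exception was LIN replicate 8, which lay inside the PALM range. The marked spot of LIN replicate 7 read 6.42 and was left out. Processed intensities behind these values were 7275 to 11609 on LIN and 3164 to 7765 on PALM. The mean was 5.89 ± 0.40 on LIN and 4.97 ± 0.29 on PALM (SD, n = 7 and 10). Retsat was 1.89-fold higher on LIN (0.92 ± 0.16, 95% interval 0.58 to 1.25, adjusted p = 0.00978 by limma). With the marked spot kept the difference was 0.98 ± 0.16 (adjusted p = 0.00449).

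Retsat was higher on LIN within each of the 5 slides, with unmarked spots by 1.51, 0.91, 1.24, 0.65 and 0.03 on slides 1 to 5. Slide 5, with the smallest difference, holds LIN replicate 8 and PALM replicates 9 and 10, whose values of 5.34 and 5.07 lie on both sides of it. Slide as a fixed block gave 0.90 ± 0.17 (adjusted p = 0.0273). Leaving out slide 1 ended the call (0.79, adjusted p = 0.132), and so did quantile normalization over the unmarked spots (0.67, adjusted p = 0.797), whereas leaving out any 1 array kept it.

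**Figure D2:**
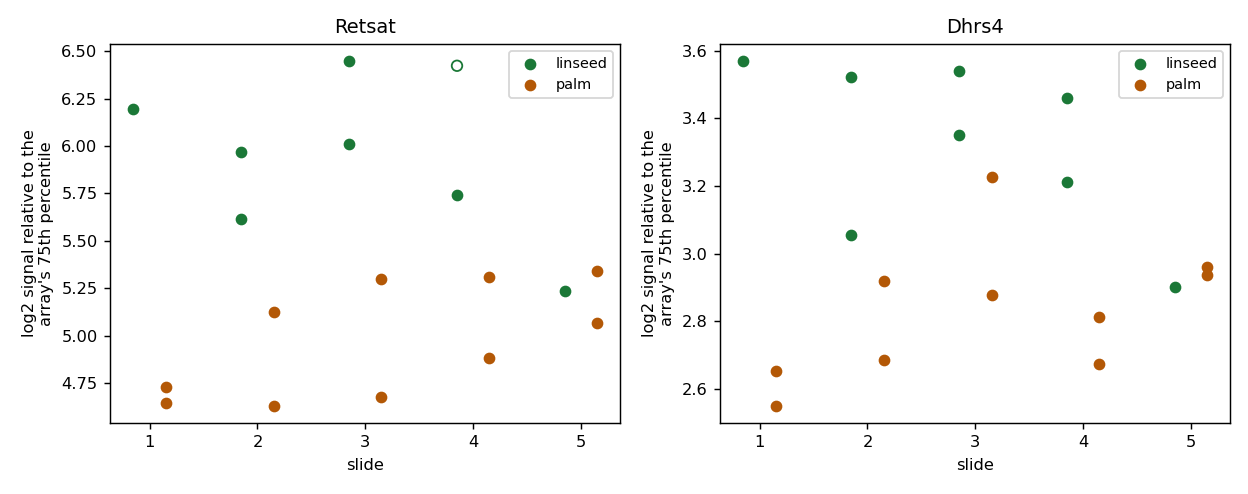
Retsat and Dhrs4 by slide: 1 point per mouse, log2 intensity relative to the array's 75th percentile, linseed left and palm right within each of 5 slides; the open circle is a marked spot. The diets are separate on slides 1, 2, 3 and 4 for Retsat, with linseed above, and meet on slide 5, where the difference of means was 0.03 for Retsat and -0.05 for Dhrs4.

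Dhrs3, a reductase that turns retinal back into retinol and that retinoic acid is known to induce, did not pass the test. It ranged from 5.58 to 6.21 on LIN (median 5.77) and from 5.33 to 6.01 on PALM (median 5.78, n = 9). The ranges overlap except for LIN replicates 2 and 3, which lay above every PALM value. The difference was 0.07 ± 0.10 (95% interval -0.15 to 0.28, adjusted p = 0.87 by limma), so a difference above 0.28 lies outside the interval.

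Dhrs4, a peroxisomal short-chain reductase that acts on retinal, was higher on LIN. Its LIN values were 3.05, 3.52, 3.54, 3.35, 3.57, 3.21, 3.46 and 2.90 for replicates 1 to 8. On PALM they ranged from 2.55 to 3.23 with a median of 2.84. All 8 LIN values lay above the PALM median and 5 above every PALM value; LIN replicates 1, 6 and 8 lay inside the PALM range, which PALM replicate 4 extends upward. Processed intensities behind these values were 1366 to 1839 on LIN (median 1544) and 908 to 1637 on PALM (median 1260). The mean of the log2 values was 3.33 ± 0.25 on LIN and 2.83 ± 0.20 on PALM (SD, n = 8 and 10). Dhrs4 was 1.41-fold higher on LIN (0.50 ± 0.10, 95% interval 0.28 to 0.72, adjusted p = 0.0323 by limma). Within slides the difference was 0.97, 0.49, 0.39, 0.59 and -0.05 on slides 1 to 5, higher in 4 of 5.

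The direction of the Dhrs4 difference was the same in all 38 alternatives (0.38 to 0.59), and its call was present in 23. It was lost without LIN replicate 2, 3, 4, 5 or 7 (adjusted p of 0.0736, 0.0749, 0.0508, 0.0693 and 0.0726) and without PALM replicate 1, 5, 6 or 8 (0.0609, 0.0606, 0.0585 and 0.0515), and slide as a fixed block gave 0.48 ± 0.11 (adjusted p = 0.0467). It was also lost without slide 1 (0.41, adjusted p = 0.221), without slides 4 and 5 (0.59, adjusted p = 0.181), with the percentile taken over unmarked spots (0.46, adjusted p = 0.152) and with no filter on dim probes (adjusted p = 0.118).

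Aldh1a1, a cytosolic dehydrogenase that oxidises retinal to retinoic acid, was bright, and 5 of its 18 spots were marked, which left 5 LIN and 8 PALM values and kept it out of the test. Over all spots it ranged from 7.22 to 7.96 on LIN (median 7.48) and from 6.65 to 7.57 on PALM (median 7.25). Of 8 LIN values 7 lay above the PALM median and 3 above every PALM value. With marked spots kept the difference was 0.34 ± 0.13 (95% interval 0.07 to 0.61, adjusted p = 0.294 by limma), which is not called. It was higher on LIN within 5 of 5 slides, by 0.08 to 0.54.

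Aldh1a7, a close rodent paralog of Aldh1a1, ranged from 4.10 to 4.88 on LIN (median 4.49) and from 3.59 to 4.79 on PALM (median 4.503, n = 8). The LIN values lie within the PALM range except for that of replicate 8, and PALM replicate 8 is the lowest of all. The difference was 0.16 ± 0.16 (95% interval -0.18 to 0.49, adjusted p = 0.796 by limma). The probes of Aldh1a1 and Aldh1a7 shared at most 21 of 60 bases over ungapped shifts, with a longest run of 8. They were compared only with each other and not with the other gene's transcript, so whether either binds both transcripts was not tested.

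Cyp26a1, which hydroxylates retinoic acid and which retinoic acid induces, varied most among mice. It ranged from -2.77 to -1.002 on LIN (median -1.89) and from -3.00 to 0.67 on PALM (median -2.04). Its intensities were 22.8 to 87.3 units on LIN and 23.3 to 267 on PALM, near the dim end of the arrays, yet the spot was well above background on all 18 arrays. The SD was 0.61 on LIN and 1.15 on PALM, and PALM replicates 1, 2 and 6 were the only arrays above -1. The difference was -0.18 ± 0.42 (95% interval -1.06 to 0.69, adjusted p = 0.924 by limma), an interval that leaves room for a doubling on PALM. Without PALM replicate 2, the highest array, it was 0.08 (adjusted p = 0.968).

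**Figure D3:**
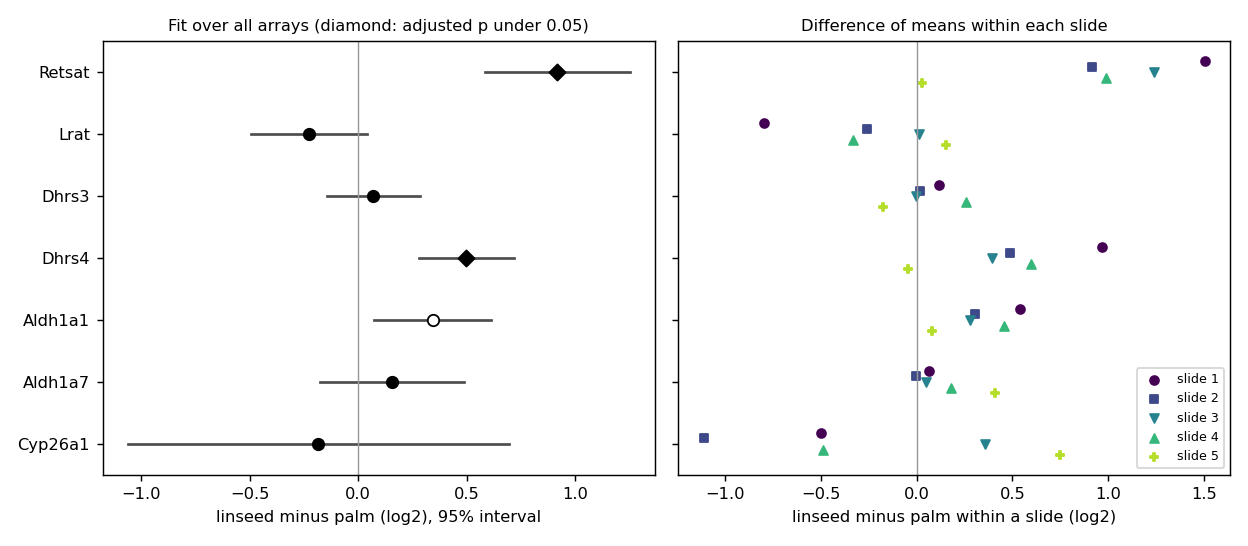
Differences between diets for 7 genes (linseed minus palm, log2): left, the fit over all arrays with its 95% interval, where diamonds are called and the open circle (Aldh1a1) is the fit with marked spots kept; right, the difference of means within each slide over all spots. The Retsat and Dhrs4 intervals lie above 0, the Cyp26a1 interval is the widest (-1.06 to 0.69), and slide 5 gives the lowest Retsat and Dhrs4 differences.

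LIN replicate 8 was the lowest LIN array for Retsat, Dhrs3 and Dhrs4, and the highest for Aldh1a7. To see how members varied among mice of a diet, 21 pairs of 7 genes (Rbp4 left out) were correlated over the arrays, after each diet's mean had been removed. The p-values come from 100000 permutations within slides, two-sided, adjusted over the 21 pairs. Both values of a pair share the array's scaling, and n runs from 12 to 18 as marked spots drop out. Of the 21 pairs 3 passed, and all 3 involve Dhrs4. How common such correlations are among all probes was not tested. Probes of other genes, given below, followed Retsat and Dhrs4 more closely than these members did.

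Retsat and Dhrs4, the genes called between diets, also varied together among mice of a diet (r = 0.78, rho = 0.71, n = 17, permutation adjusted p = 0.0378 for r and 0.068 for rho). Without the 2 arrays farthest from the median of Retsat r was 0.68. Dhrs3 and Dhrs4 varied in the same sense (r = 0.63, rho = 0.60, n = 17, permutation adjusted p = 0.0378 for r and 0.068 for rho), and r was 0.64 without the 2 arrays farthest from the median of Dhrs3. Lrat and Dhrs4 varied in the opposite sense (r = -0.67, rho = -0.73, n = 18, permutation adjusted p = 0.0277 for r and 0.0239 for rho), and r was -0.70 without the 2 arrays farthest from the median of Lrat.

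With slide means removed as well, r was 0.79 for Retsat and Dhrs4 (permutation adjusted p = 0.0507), 0.62 for Dhrs3 and Dhrs4 (permutation adjusted p = 0.0689) and -0.81 for Lrat and Dhrs4 (permutation adjusted p = 0.03). By r the Lrat pair alone of the 21 passed, and by rho it did not (permutation adjusted p = 0.061). A slide holds 3 or 4 arrays, too few for a correlation of its own. Aldh1a1 and Aldh1a7, the paralogs, gave r = 0.51 and rho = 0.52 (n = 12, permutation adjusted p = 0.146 and 0.178). Retsat and Aldh1a7 gave r = -0.67 and rho = -0.75 (n = 15, permutation adjusted p = 0.0978 and 0.068).

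**Figure D4:**
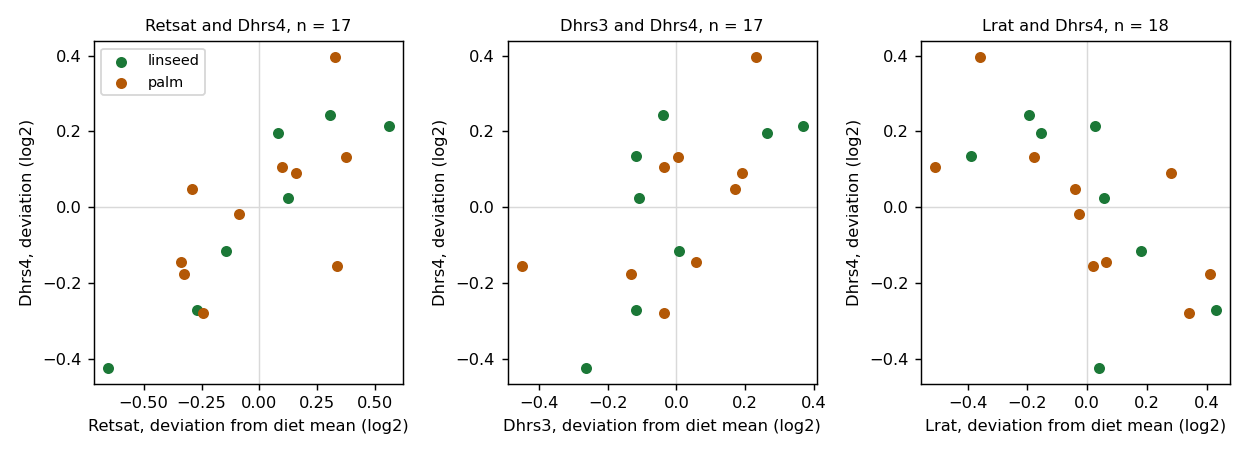
The 3 pairs past the threshold: 1 point per mouse, each axis the deviation from the mean of its diet (log2), green for linseed and brown for palm. Dhrs4 goes with Retsat (r = 0.78) and with Dhrs3 (r = 0.63), and against Lrat (r = -0.67).

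The probes whose levels followed the called members most closely were taken over all 18 arrays, again with diet means removed, from 20386 probes, as a description with no test. For Retsat these were Wdr74 (r = 0.93), Map1lc3a (r = 0.93) and Leng9 (r = 0.90). For Dhrs4 they were Acadvl, the mitochondrial very-long-chain acyl-CoA dehydrogenase (r = 0.93), Fam162a (r = 0.90) and Zfp637 (r = 0.90). These 6 genes were not called between diets: with marked spots kept their differences ran from 0.12 to 0.46, the highest being Map1lc3a (adjusted p = 0.081).

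Other genes of retinoid biology were read from 8 lists with 84 probes of 70 genes, 59 of which were tested. Of the 59, 1 had saturated spots and 2 were well above background on fewer than 4 LIN or 5 PALM arrays. They are left out of what follows, a rule set after the data had been seen, which leaves 56. Of these 56 probes 2 were called higher and 0 lower, with a median difference of 0.01. Over all probes 0.589% were called higher and the median was -0.000512. The lists too were chosen with earlier results of these data known, so the count cannot be read as enrichment. At an unadjusted p under 0.05, 10 of the 56 passed, beside 10.6% of all probes. The called genes were Aox1 and Hsd17b6.

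The list of retinal oxidation to retinoic acid had 3 usable probes besides the members, 1 called higher and 0 lower (2 at an unadjusted p under 0.05). Their median was 0.31. Aox1, an aldehyde oxidase that can turn retinal into retinoic acid, ranged from 2.79 to 3.43 on LIN (median 3.28) and from 2.14 to 3.13 on PALM (median 2.64). Of 8 LIN values 6 lay above every PALM value. Aox1 was 1.54-fold higher on LIN (0.62 ± 0.12, adjusted p = 0.0169 by limma), higher within 5 of 5 slides by 0.26 to 0.88. The call was present in 32 of 38 alternatives. It was lost without slide 1 (0.58, adjusted p = 0.143), without slides 4 and 5 (adjusted p = 0.105), with the percentile over unmarked spots (adjusted p = 0.0903), with no filter on dim probes (adjusted p = 0.0633), and with quantile normalization over the unmarked spots (0.52, adjusted p = 0.756).

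Retinol and retinal dehydrogenases had 11 usable probes, 1 called higher and 0 lower (4 at an unadjusted p under 0.05). Of the 11 probes 6 were positive, with a median of 0.03 and a range of -0.39 to 1.20. Hsd17b6, a short-chain dehydrogenase that can oxidise retinol and sterols, ranged from 0.33 to 2.44 on LIN (median 1.61) and from -0.86 to 1.23 on PALM (median 0.30). Again 6 of 8 LIN values lay above every PALM value. It was 2.3-fold higher on LIN (1.20 ± 0.26, adjusted p = 0.0361 by limma), with within-slide differences of -0.06 to 1.57, higher in 4 of 5. Its call was present in 19 of 38 alternatives and was lost without LIN replicate 2, 3, 4, 5, 6 or 7 (adjusted p of 0.0772, 0.0761, 0.0508, 0.0693, 0.0581 and 0.0772) or without PALM replicate 1, 2, 5, 6, 9 or 10 (0.0647, 0.0575, 0.0606, 0.0586, 0.0628 and 0.0535). Over all alternatives that lost it the adjusted p was 0.0508 to 0.216, and its direction was the same in all 38.

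Retinyl ester synthesis and hydrolysis had 10 usable probes, 0 called by limma (2 at an unadjusted p under 0.05) and a median of 0.16. Ces1f, a liver carboxylesterase, had the smallest p among them. It was 0.32 ± 0.09 higher with marked spots left out (adjusted p = 0.167, 6 mice of each diet) and 0.34 with all 18 spots (adjusted p = 0.0277). Over all spots it ranged from 5.95 to 6.34 on LIN and from 5.54 to 6.02 on PALM, with 6 of 8 LIN values above every PALM value. Pnpla3, a lipase of lipid droplets, is left out of these 10: its probe was well above background on 1 of 8 LIN and 7 of 10 PALM arrays, so no difference is given.

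Transport and binding had 6 usable probes, 0 called (2 at an unadjusted p under 0.05) and a median of -0.20. Scarb1, a lipoprotein receptor that also takes up carotenoids, had 2 probes there, at -0.29 ± 0.10 and -0.26 ± 0.10 (adjusted p = 0.271 and 0.339). Carotenoid cleavage had 2 tested probes, 0 called (0 unadjusted), with Bco1, which splits beta-carotene into retinal, at -0.18 ± 0.10 (adjusted p = 0.553). Retinoic acid hydroxylation, apart from Cyp26a1, had 3 tested probes, 0 called (0 unadjusted) and a median of -0.09, with Cyp26b1 at -0.21 ± 0.55 (adjusted p = 0.933).

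Receptors and corepressors had 15 tested probes, 0 called (0 at an unadjusted p under 0.05) and a median of 0.05. Rxrg, a retinoid X receptor, had the smallest p at 0.30 ± 0.15 (adjusted p = 0.514), and its other probe was at -0.12, so its probes differed in sign. Retinoic acid response genes had 10 tested probes, 0 called (0 unadjusted) and a median of -0.14.

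**Figure D5:**
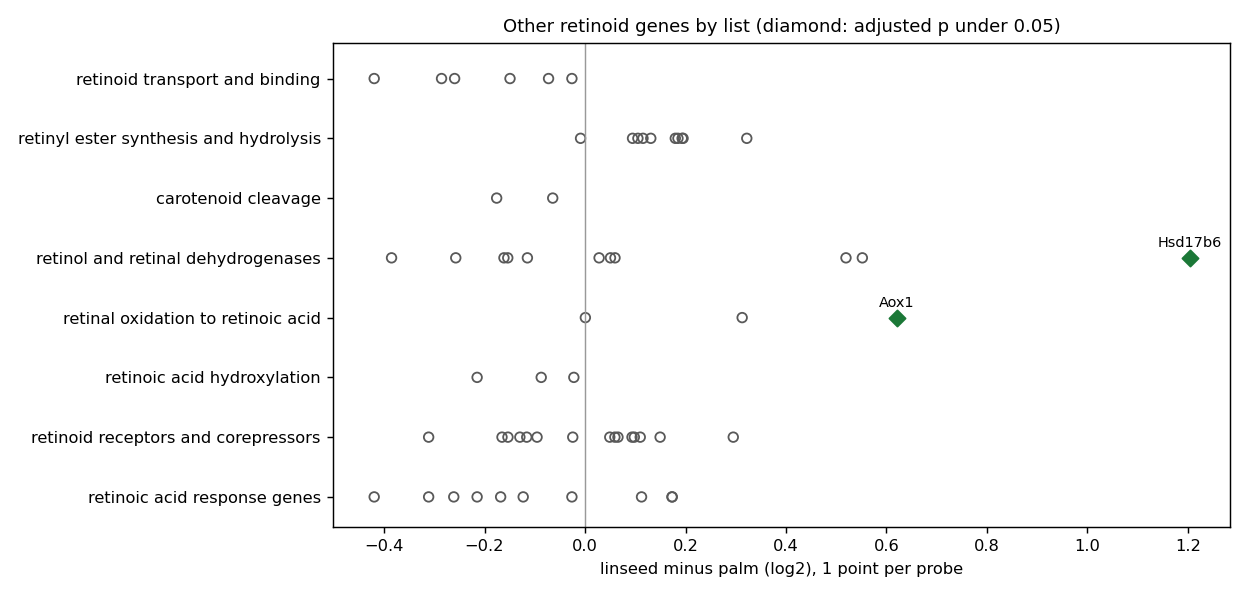
Differences between diets (linseed minus palm, log2) for the 56 usable probes of 8 retinoid lists: 1 point per probe and list, diamonds for called probes. Aox1 (0.62) and Hsd17b6 (1.20) are the called probes, and the others lie between -0.42 and 0.55.

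Markers of the cell types a liver sample can hold were read beside these results. Among usable probes 0 of 5 for hepatocytes (another 3 were saturated), 0 of 11 for Kupffer cells, 0 of 9 for sinusoidal endothelium and 0 of 3 for cholangiocytes were called, none at an unadjusted p under 0.05, with medians of 0.02, -0.06, 0.02 and -0.26. The markers of smallest p were Vsig4 for Kupffer cells at -0.19 ± 0.19, Lyve1 for sinusoidal endothelium at -0.21 ± 0.23 and Colec11 for stellate cells at -0.12 ± 0.09. The adipocyte markers had a summed level of 1.90 to 36.2 on LIN and 0.244 to 10.3 on PALM, in units of the array's 75th percentile. Cfd alone made up 80.7% to 99.8% of that sum on LIN and 49.8% to 99.1% on PALM, so the sum is mainly the level of that gene. Of the 6 adipocyte probes only that of Cfd was tested, at 2.54 ± 0.88 (adjusted p = 0.264, unadjusted p = 0.00962). Lep was well above background on 0 arrays, and Adipoq, Retn and Plin1 on 2 or 3 of 8 LIN and 1 of 10 PALM arrays. The part of adipose tissue in the results was not tested.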

How the data were processed

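Liver RNA of 18 mice (1 µg each, labelled with Cy3) was measured on 1-colour Agilent arrays, per the labels' protocols. Per the file headers, the authors read each spot's intensity with Feature Extraction 9.5.3.1, which subtracts background within an array; limma and Feature Extraction 9.5 are the tools in the submitters' processing notes. The authors' deposited table of log2 values (18060 probes; rank correlation with the processed signal 0.991 to 0.998; medians per array 7.848 to 7.852) served as an alternative; the sources used here do not give its scaling.

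Groups came from the sample titles. Values were log2 of the processed signal over each array's 75th percentile of non-control spots. Marked spots were then left out, saturated spots kept, and spots of a probe averaged. Testing required a signal well above background on 8 or more of the arrays and 6 or more values in each diet. LIN and PALM arrays were compared by the two-sided moderated test of limma 3.58.1 (R 4.3.3), without covariates. Probes, not genes, were tested. Symbols follow RefSeq for GRCm38.p6: an accession matched 26055 probes, a symbol 3195 and a synonym 930, while 9249 stayed as named in the file. Positions of probes are in mm9, as deposited.

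Arrays without a barcode in the header share a scan time and were taken as slide 1. The members and lists were chosen with earlier results of these data known. Named were every member, the called probes of each list (at most 4, otherwise the 1 of smallest p) and the 3 genes most like each called member; some genes that this rule names are not reported here. In a simulation of 19510 probes with each probe's own spread, 84% of changes of 1 log2 unit and 50% of changes of 0.5 were called, and 0.0207% of unchanged probes; the simulated noise was independent, which need not hold on real arrays. Correlation between arrays was 0.970 to 0.992, so no pair of arrays held identical values. Alternatives covered background correction, scaling, marked spots, filters, probes of a gene, slide, replicate number, variance model, array weights, the deposited table and leaving out each array.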

Additional observations from a re-analysis of the deposited data

How the results depend on the processing

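Retsat was called in 35 of 38 alternatives (0.67 to 1.20) and Dhrs4 in 23 (0.38 to 0.59), always with the same direction. The other tested members were called in none. Over all probes the main 147 calls became 136 with quantile normalization, 74 with normexp background correction, 50 with the percentile over unmarked spots, 49 with no filter on dim probes, 253 with slide as a random block, 32 without slide 1 and 26 without slides 4 and 5. Leaving out 1 array gave 60 to 185, and moved the count by over 1.5 times without LIN replicate 2, 3, 5 or 7 (68, 68, 60 and 77) and PALM replicate 1, 5, 6, 9 or 10 (80, 67, 93, 91 and 87). Marked spots kept together with slide, added after seeing the data, gave 226 as a fixed and 312 as a random block.

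The count of called members was 2, and 1 with the percentile over unmarked spots, with no filter on dim probes and without slides 4 and 5 (Retsat in each), 0 without slide 1, and 1 to 2 when an array was left out. Quantile normalization was first run after marked spots had been left out, which gave 26 probes and 0 members (Retsat 0.67, adjusted p = 0.797; Dhrs4 0.38, adjusted p = 0.989). It was replaced by normalization before leaving them out, after these counts had been seen, so that ranks are formed over the same spots on every array, and both versions are given. The cause of the other changes was not tested, beyond the fewer arrays or the larger number of probes that some settings bring.

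Replicate numbers are shared by the diets and were not taken to pair the mice, since not every pair correlated above 0.1. Deviations of same-numbered arrays correlated at -0.21 to 0.46, over 0.1 in 5 of 8, and 2 of 8 LIN arrays correlated best with their own number. Same-numbered arrays shared a slide except for numbers 6 and 8, which gave the lowest values (0.03 and -0.21). Whether these correlations follow slide or number was not tested. With the replicate block 20 probes and 0 members were called (Retsat 0.97, adjusted p = 0.128; Dhrs4 0.53, adjusted p = 0.0922), and neither were Aox1 (0.60, adjusted p = 0.113) nor Hsd17b6 (1.22, adjusted p = 0.216).

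Signs turned for Aldh1a7 without slides 4 and 5 (-0.0027) and for Cyp26a1 without PALM replicate 2 (0.077; with 1 array left out it ran from -0.33 to 0.077), neither called. Of the 21 pairs 3 passed, 1 with slide means removed, 1 with diet means kept (Retsat and Dhrs4) and 3 with marked spots kept. With diet means kept, values stayed relative to the array's percentile, so the shared scaling remained and r includes the diet difference. Signs also turned for pairs that had not passed. With slide means removed these were Retsat and Cyp26a1 (0.0063) and Dhrs3 and Cyp26a1 (-0.022). With diet means kept they were Lrat and Aldh1a1 (-0.26) and Aldh1a1 and Cyp26a1 (-0.028). With marked spots kept they were Lrat and Aldh1a1 (-0.030) and Aldh1a1 and Cyp26a1 (-0.014). Without the 2 farthest arrays they were Retsat and Dhrs3 (-0.058), Dhrs3 and Aldh1a7 (-0.30) and Aldh1a1 and Cyp26a1 (-0.066).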
